A study of Mus musculus with 170 samples.

Results

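The 9 genes described here were Wt1, Tbx18, Tcf21, Bnc1, Upk3b, Upk1b, Aldh1a1, Aldh1a2 and Dcn, taken by name as a set of epicardial and retinoic acid genes from the 40549 gene rows of the expression table. The epicardium is the mesothelial sheet that covers the heart. It grows out of the proepicardium, a cluster of cells near the venous pole, and some of its cells later move into the heart wall as fibroblasts and mural cells. The developing epicardium is also a known source of retinoic acid, which retinal dehydrogenases make from retinal and which reaches its nuclear receptors in neighbouring cells. Wt1, Tbx18, Tcf21 and Bnc1 encode transcription factors, Upk3b and Upk1b encode uroplakins, Aldh1a1 and Aldh1a2 encode retinal dehydrogenases, and Dcn encodes the collagen-binding matrix proteoglycan decorin.

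Single cells came from the ventricular part of E9.5 hearts of C57BL/6 mouse embryos and were profiled by Smart-seq2, which amplifies full-length cDNA from poly(A) RNA. Control embryos, labelled wild type, carried floxed alleles of Dgcr8 and the mT/mG membrane reporter but no Cre. In the conditional knockout (cKO, labelled Mesp1Cre/+; Dgcr8-/-), Cre from the Mesp1 locus deleted Dgcr8, which encodes a partner of Drosha in microRNA processing, and switched the same reporter from tdTomato to GFP in the Mesp1 lineage. According to the study's methods, visibly separate cells were picked by mouth pipette, and cKO cells that kept tdTomato were left out, as were control cells with GFP. The cells analysed here were therefore chosen by picking and by reporter, and their makeup is not that of the heart.

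The table held 74 control cells (35 in sequencing batch 1 and 39 in batch 2) and 69 cKO cells (35 and 34). The labels name no embryo, so each genotype was 1 sample, cells were not replicates, and no difference between groups was tested. Values are TPM (transcript abundance scaled to transcript length and to a fixed total per cell), and sequencing depth was unknown. The median number of genes above 0 was 8819.5 in control cells (range 2063 to 14139) and 8456 in cKO cells (4244 to 11044). Transcript of Dgcr8 was found in 30 control and 21 cKO cells. Xist, transcribed from the inactive X chromosome, was found in 3 of the 74 control cells and in 64 of the 69 cKO cells, while the Y-linked Ddx3y was found in 49 and 0, so genotype and the sex of the embryos cannot be told apart. Detected means a TPM of at least 1 throughout.

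Cells were grouped by marker genes that included none of the 9 genes. Of 5 clusters, the largest held 102 cardiomyocyte-like (CM-like) cells, 33 control and 69 cKO, with all 15 cardiomyocyte markers raised. Its control cells varied widely, with these markers summing to between 933 and 116748 TPM, so some held little cardiomyocyte RNA. With 6 clusters, 27 control cells were CM-like. The paper, which used lineage markers from published work, called fewer cells of each genotype cardiomyocytes than the 5 clusters did. The other clusters of the 5 came from control alone, with 22 endothelial-like cells, 5 erythroid-like cells, a cluster of 13 cells (4 of batch 1, 9 of batch 2) and 1 cell that stood alone. In the cluster of 13, the markers raised over all other cells and detected in most of its cells were 4 of 7 mesothelial markers (Lrrn4, Pdpn, Krt7 and Sema3d) and 6 of 14 mesenchymal markers (Sox9, Fbln2, Col1a2, Col1a1, Pdgfra and Postn). Of the mesothelial markers, Msln was detected in 1 of the 13 cells and Muc16 in none, and among the mesenchymal markers Lum, Prrx1, Mmp2 and Lox were in none. It is called the mesothelial-mesenchymal cluster below and was given no cell type name, because 2 marker classes met in it. The summed mesenchymal markers had a median TPM of 435 in the cluster and 434 in endothelial-like cells, so their sum did not set it apart from those cells. All 69 cKO cells were CM-like, so no cKO cell could be set against this cluster.

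The 9 genes were concentrated in the mesothelial-mesenchymal cluster. All 9 were higher there than in control CM-like cells by at least 1 log2 unit, a size of difference reached in the same direction by 28.2% of the 16659 genes tested. The median difference of the 9 genes was 5.81 on the log2(TPM + 1) scale (mean 5.73), and the median over all genes tested was 0.39. Among all genes ranked by that difference, Upk3b stood at place 1, Upk1b at 2 and Tcf21 at 3, followed by Aldh1a1 at 10, Dcn at 12, Tbx18 at 21, Wt1 at 23, Aldh1a2 at 383 and Bnc1 at 1831. Since the genes were chosen with earlier results of these data known, the counts and places given for them are a description only. All 9 differences were positive in each batch. Bnc1 and Aldh1a2 each had TPM above 0 in 7 of the 13 cells and in few others, so they passed the filter on low values (TPM above 0 in more than 10 cells) mainly through this cluster. The mean over the 9 was 1.70 when cells were clustered on 1000 variable genes instead of markers, which gave a mixed group of 37 cells in place of the 13. Wt1 (0.03) and Bnc1 (0.80) were then below 1, as was Bnc1 (0.71) with a pseudocount of 10. For 4 of the 9 (Tcf21, Upk3b, Upk1b and Aldh1a1), the lowest cell of the cluster lay above the highest control CM-like cell, which was so for 0.072% of all genes tested (12 genes).

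**Figure D1:**
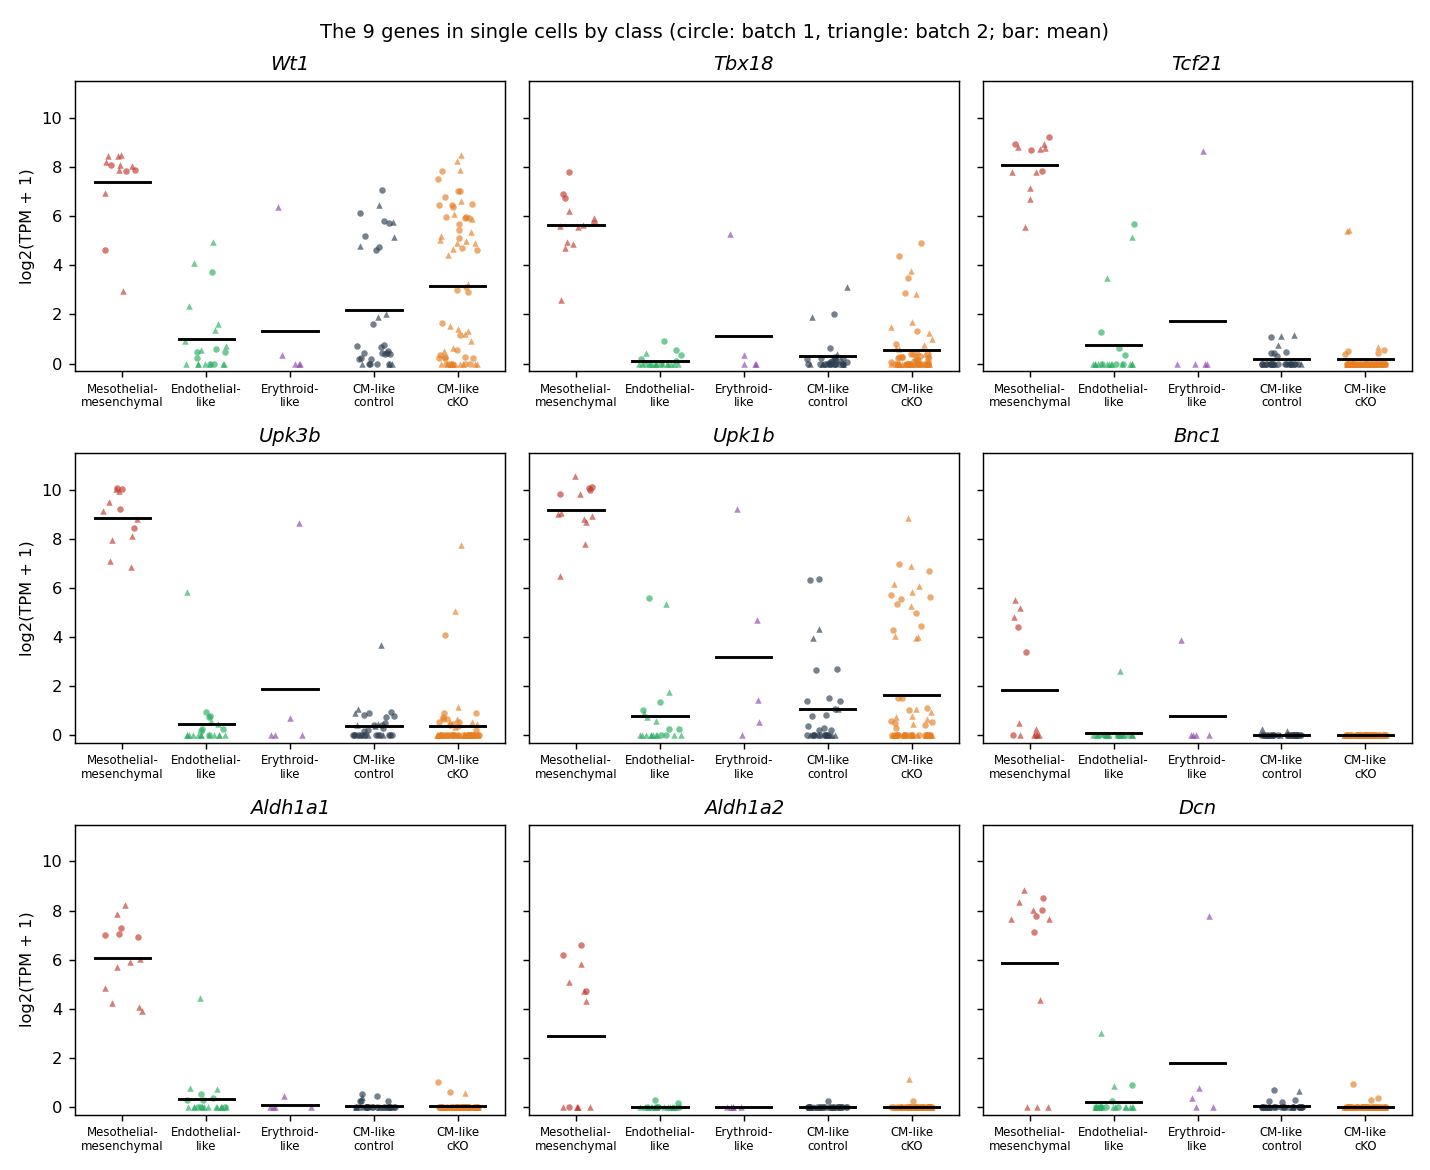
Levels of the 9 genes, as log2(TPM + 1) on the vertical axis, in each cell of 5 groups, with circles for batch 1, triangles for batch 2 and a bar at the group mean. All 13 mesothelial-mesenchymal cells carried Wt1, Tbx18, Tcf21, Upk3b, Upk1b and Aldh1a1, while Bnc1, Aldh1a2 and Dcn were split between cells with and without transcript, and Wt1 and Upk1b also appeared in many CM-like cells.

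Tcf21, a bHLH factor needed for cardiac fibroblasts, separated the groups most cleanly of the transcription factors. In the 13 mesothelial-mesenchymal cells its TPM ranged from 45.8 to 603 with a median of 418, and it was detected in all 13 (exact 95% interval of the share 75.3% to 100%). In control CM-like cells the highest value was 1.25 and the median 0, and it was detected in 3 of 33 cells. Among cKO CM-like cells it was detected in 2 of 69, both of batch 2, at TPM 41.5 and 42.01. The lowest mesothelial-mesenchymal cell was thus above every CM-like cell of either genotype, but not above the highest endothelial-like cell, at 49.98.

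Wt1, a zinc-finger factor of the epicardium, was in all 13 mesothelial-mesenchymal cells at TPM 6.84 to 363, with a median of 263. It was not limited to them. In control CM-like cells the TPM ranged from 0 to 131 with a median of 0.587, and 14 of 33 cells (42.4%, exact 95% interval 25.5% to 60.8%) had it detected. In cKO CM-like cells it ranged from 0 to 355 with a median of 6.92, and 42 of 69 cells (60.9%, 48.4% to 72.4%) had it. The groups overlapped widely. Endothelial-like cells, with 9304 genes above 0 at the median, had Wt1 in 6 of 22 cells (27.3%, 10.7% to 50.2%), and their highest value was 29.8.

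Tbx18, a T-box factor of the epicardium and sinus horns, was detected in all 13 mesothelial-mesenchymal cells at TPM 5.09 to 224, with a median of 48.9. CM-like cells had it in 3 of 33 from control (highest 7.62) and 10 of 69 from cKO (highest 28.9), so the ranges overlapped at the lower end. It was detected in 0 of 22 endothelial-like cells (exact 95% upper bound 15.4%). Bnc1, which encodes the zinc-finger protein basonuclin-1, was the lowest and patchiest of the factors. It was detected in 5 of the 13 cells at TPM 9.66 to 45.2 and was below 1 in the remaining 8. No CM-like cell had it, with 0 of 33 in control and 0 of 69 in cKO. The limit that a count of 0 allows, taken as 3 cells of the total, was 9.09% and 4.35%, and the exact 95% upper bounds were 10.6% and 5.21%.

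The uroplakin genes gave the highest levels of the set. Uroplakins are membrane proteins best known from the bladder lining and are also made by mesothelium. Upk3b ranged from 113 to 1084 TPM in the 13 cells, with a median of 567. Among CM-like cells, 2 of 33 from control (highest 11.8) and 4 of 69 from cKO had it, and of the latter, 1 cell of batch 2 reached 216 and so fell within the range of the cluster. Upk1b ranged from 88.6 to 1522 TPM with a median of 534. In CM-like cells it was detected in 11 of 33 control cells (33.3%, 17.96% to 51.8%, highest 81.01) and 23 of 69 cKO cells (33.3%, 22.4% to 45.7%, highest 454). The cKO cells overlapped the cluster for both genes, whereas the control CM-like cells did not reach it. Endothelial-like cells had Upk1b in 5 of 22 cells (22.7%, 7.82% to 45.4%).

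The genes of retinal oxidation differed from each other within the cluster. Aldh1a1 was detected in all 13 cells, at TPM 13.9 to 301 with a median of 64.1. Aldh1a2, the main retinal dehydrogenase of early embryos, was detected in 7 of the 13 (53.8%, 25.1% to 80.8%), at TPM 19.3 to 96.2 where present, and was at 0 in the other 6. In control CM-like cells neither was detected (0 of 33 each, highest TPM 0.434 and 0.179), and in cKO CM-like cells each was detected in 1 of 69, at TPM 1.04 for Aldh1a1 and 1.24 for Aldh1a2. Dcn was detected in 10 of the 13 cells at TPM 19.7 to 455, was at 0 in the other 3, and was below detection in all 33 control and all 69 cKO CM-like cells (highest TPM 0.626 and 0.906).

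TPM is scaled by transcript length, so levels may also be ordered between genes. On the mean log2(TPM + 1) level over the 13 cells (SD across cells), the order was Upk1b 9.17 ± 1.11, Upk3b 8.86 ± 1.11, Tcf21 8.08 ± 1.08, Wt1 7.38 ± 1.67, Aldh1a1 6.08 ± 1.47, Dcn 5.87 ± 3.52, Tbx18 5.64 ± 1.26, Aldh1a2 2.88 ± 2.84 and Bnc1 1.86 ± 2.37. Each gene differed from its neighbour in that order by less than the larger SD of the pair. The widest step was 2.75, between Tbx18 and Aldh1a2. Levels were higher in batch 1 for several genes. Upk1b, for instance, had a mean log2 level of 10.00 in the 4 cells of batch 1 and 8.80 in the 9 of batch 2, and Aldh1a1 had 7.06 and 5.64.

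Among the cells of the cluster, Aldh1a2 and Bnc1 were detected only in cells with Dcn, which 10 of the 13 had. How much of this overlap the totals alone would give was not tested. All 7 cells with Aldh1a2 also had Dcn, and all 5 cells with Bnc1 had Dcn. The 3 cells without Dcn, all of batch 2, had neither Aldh1a2 nor Bnc1, while 3 cells had Dcn without Aldh1a2. Aldh1a2 and Bnc1 were found together in 4 cells. The summed TPM of the 14 mesenchymal markers ranged from 119 to 469 in the 3 cells without Dcn and from 162 to 698 in the 10 with it, so these ranges overlapped. The cell with the lowest Tbx18, Tcf21 and Aldh1a1 of the 13 was 1 of the 3 without Dcn and had by far the highest summed cardiomyocyte markers, at TPM 45610 against a median of 4462 over the 13. The part of cardiomyocyte RNA in its values was not tested.

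**Figure D2:**
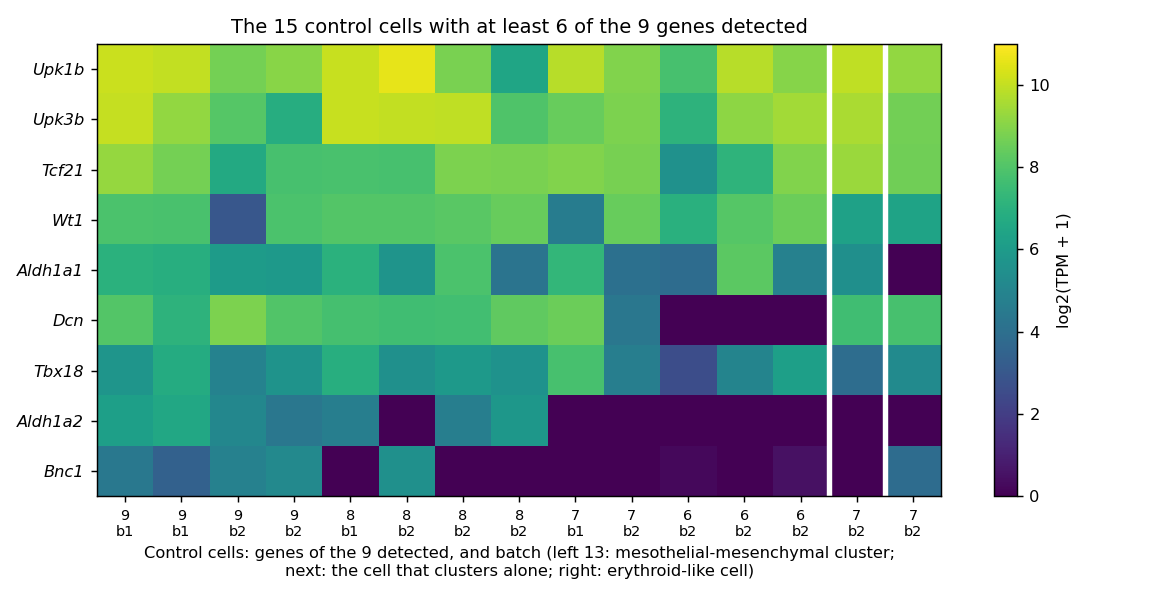
Heat map of log2(TPM + 1) of the 9 genes (rows, ordered by mean level) in the 15 control cells with at least 6 of them detected (columns, marked with the number detected and the batch). The left 13 columns are the mesothelial-mesenchymal cluster, in which the 3 cells without Dcn also lack Aldh1a2 and Bnc1 while other cells lack Aldh1a2 or Bnc1 alone or both, and the last 2 columns are the cell that clustered alone and an erythroid-like cell.

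Counting the genes within each cell separated cells without reference to clusters. Of 74 control cells, 15 (20.3%, exact 95% interval 11.8% to 31.2%) had at least 6 of the 9 detected, 4 of them all 9. No control cell had 5, and the remaining 59 had 4 or fewer. Of 69 cKO cells, 0 had more than 3, so the share with at least 6 was 0 (exact 95% upper bound 5.21%). The share of control cells with at least 6 was 11.4% in batch 1 (4 of 35) and 28.2% in batch 2 (11 of 39). With any TPM above 0 counted as detection, 63.5% of control and 33.3% of cKO cells had at least 3 of the genes. With a limit of 3 genes at the usual threshold, the shares were 25.7% of control cells (19 of 74) and 4.35% of cKO cells (3 of 69). In CM-like cells alone, 2 of 33 control cells had 4 of the genes and 0 had 3, while 3 of 69 cKO cells had 3. All cKO cells were CM-like, so the shares over all cells compare different mixtures of classes. How far the gap over all cells reflects the picking of cells, the removal of cells by reporter or the genotype cannot be told apart.

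**Figure D3:**
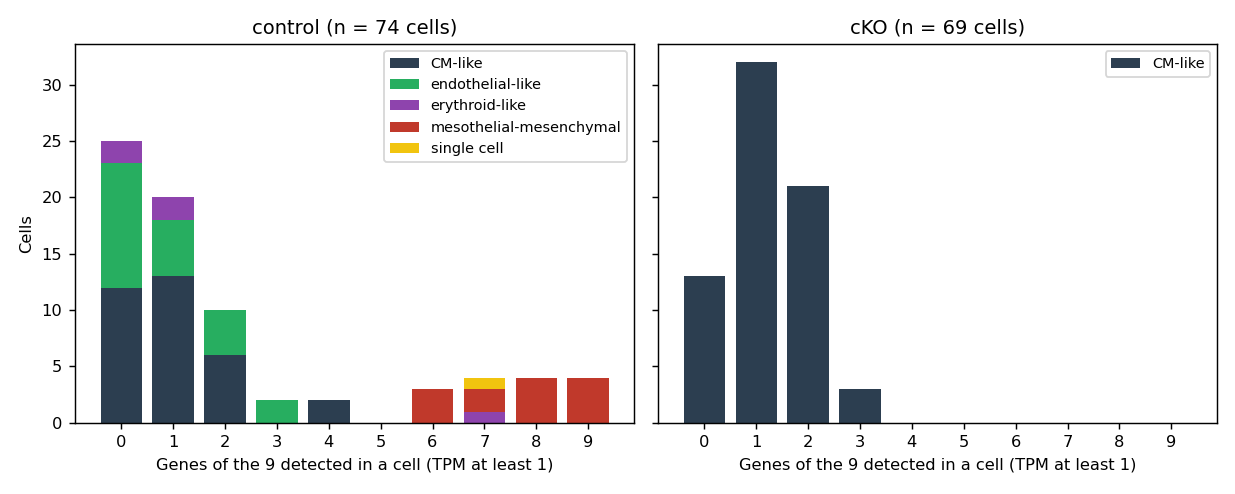
Number of cells (vertical axis) by how many of the 9 genes were detected in them (horizontal axis), for control and cKO, with bars stacked by cluster. Control cells fell into a group with 0 to 4 and a group of 15 cells with 6 to 9, and the 69 cKO cells lay between 0 and 3.

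Of the 15 cells, 13 were the mesothelial-mesenchymal cluster. In that cluster, the summed TPM of 14 endothelial markers ranged from 8.17 to 172, against 987 to 3775 in endothelial-like cells, with Cdh5 and Cd93 at no detection. The summed erythroid markers ranged from 0 to 118, against 11701 to 459821 in erythroid-like cells, with Alas2 and Slc4a1 not detected. The 15 cardiomyocyte markers summed to between 1451 and 45610 with a median of 4462, against 933 to 116748 with a median of 62117 in control CM-like cells. The remaining 2 of the 15 cells were an erythroid-like cell and the cell that clustered alone, both with 7 of the 9 genes.

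In CM-like cells, the levels of the 9 genes were compared between cKO and control to ask whether loss of Dgcr8 was accompanied by a change in them. On the log2(TPM + 1) scale, 0 of the 9 differed by at least 1 log2 unit in either direction. Over all 16659 genes tested, 12.3% were higher in cKO by that size and 1.87% were lower. For 7 of the 9 the difference was within 0.24 on the log2 scale. Of these, Bnc1, Aldh1a1, Aldh1a2 and Dcn were near 0 in both groups and so had no room to be lower in cKO. The calls depended on how high cells were weighted. By the log2 ratio of mean TPM, Upk3b was higher in cKO by 1.62, Upk1b by 1.45 and Wt1 by 1.17, so 3 of the 9 passed 1. With a pseudocount of 0.1, Wt1 was higher by 1.19.

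Wt1 and Upk1b gave the widest differences. The mean log2 level of Wt1 was 3.17 ± 2.90 in cKO and 2.19 ± 2.52 in control CM-like cells, a difference of 0.98. The batches went different ways. In batch 1 the mean was 3.58 in cKO (23 of 35 cells detected) and 1.92 in control (8 of 24), a difference of 1.66, and in batch 2 it was 2.75 (19 of 34) and 2.90 (6 of 9), a difference of −0.15. With 6 clusters, which left 27 control CM-like cells, the pooled Wt1 difference was 0.50. Upk1b was at 1.64 ± 2.48 in cKO and 1.08 ± 1.78 in control, a difference of 0.56, with 0.54 in batch 1 and 0.60 in batch 2. All of these were smaller than the SD across cells.

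The mitochondrial share of TPM moved with genotype in these cells. Whether this reflects RNA quality or the genotype itself was not tested. The median number of genes above 0 was 8458 in control and 8456 in cKO CM-like cells. More than 15% of TPM was mitochondrial in 9 of 33 control CM-like cells and in 4 of 69 cKO CM-like cells, and the summed cardiomyocyte markers had medians of 62117 and 92770 TPM. Without the cells above 15%, the difference in Wt1 was 0.43 and that in Upk1b 0.55. Tbx18 then differed by 0.26 and Upk3b by −0.11, and none of the 9 passed 1.

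**Figure D4:**
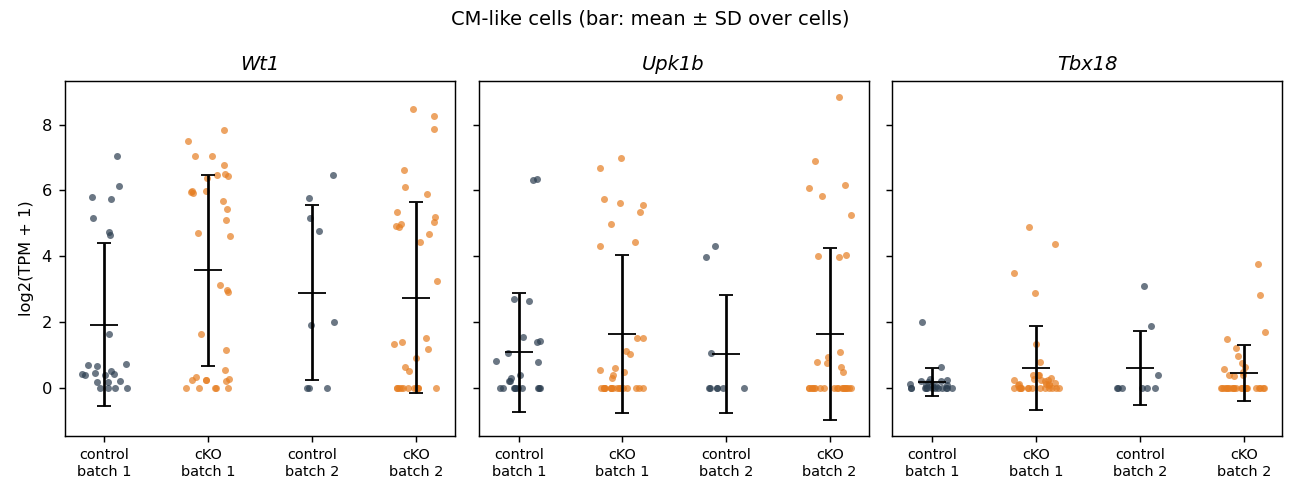
Wt1, Upk1b and Tbx18 in CM-like cells by genotype and batch, as log2(TPM + 1), with a point for each cell and a bar for the mean ± SD over cells. Cells with and without transcript were present in all 4 groups for Wt1 and Upk1b, and the cKO mean of Wt1 was above the control mean in batch 1 (3.58 against 1.92) but not in batch 2 (2.75 against 2.90).

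A list of 30 further retinoic acid genes was followed to place Aldh1a1 and Aldh1a2 among the steps of the pathway, of which 24 passed the filter. In the mesothelial-mesenchymal cluster, 8 of the 24 were higher than in control CM-like cells by at least 1 log2 unit and 0 were lower. That share lay near the 28.2% of all genes that were higher, and 2.64% of all genes were lower. The median of the 24 was 0.30 against 0.39 over all genes, so the list as a whole did not stand apart, and single steps are described below.

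Of the genes that handle retinol and retinal, Rdh11, which encodes a retinal reductase, was higher by 2.02 (2.03 in batch 1, 0.80 in batch 2). Rdh10, which oxidises retinol to retinal, was at 0.64 and 0.35 (detected in 2 of 13 cells), and Stra6, the retinol transporter of the cell membrane, was detected in 0 of 13. Of the related dehydrogenases, Aldh1a3 was at 0.44 in the cluster and 1.01 in control CM-like cells, and Aldh1a7 was detected in neither.

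Of the carriers of retinoic acid, Fabp5 was higher by 1.65 in the cluster and was highest in endothelial-like cells, at a mean log2 level of 7.76 against 6.27 in the cluster. Of the 6 receptor genes, Rara was higher by 1.10 (0.13 in batch 1, 1.18 in batch 2), while Rarb was detected in 0 of 13 cells (3 cells of the total would be 23.1%). The Cyp26 enzymes, which break retinoic acid down, did not pass the filter, and none was detected in the 13 cells. Genes that respond to retinoic acid in other settings were mixed. Nr2f2 was higher by 3.40 (2.90 in batch 1, 3.62 in batch 2) and Meis2 by 1.97 (1.76 and 2.20), whereas Hoxb1 and Tgm2 differed by 0.10 and −0.13. Crabp2 (1.59) and Nrip1 (2.68), named here after their values were seen, were higher in the pooled cells but in batch 1 alone the differences were −0.28 and −0.68. Endothelial-like cells had higher mean log2 levels than the cluster for Meis2 (5.04 against 4.75) and Nrip1 (5.39 against 3.69). They had lower ones for Nr2f2 (2.04 against 3.66), Rara (2.58 against 2.81) and Crabp2 (1.52 against 2.09).

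Between cKO and control CM-like cells, 3 of the 24 retinoic acid genes were higher and 1 was lower by at least 1 log2 unit, beside 12.3% and 1.87% of all genes tested. The share that was higher lay near that of all genes. The median of the 24 was 0.19 against 0.16 over all genes, so the list did not stand apart here either. The receptor gene Rarb had a mean log2 level of 1.70 ± 2.29 in cKO (26 of 69 cells) and 0.23 ± 0.73 in control (3 of 33), a difference of 1.47 that was 1.53 in batch 1 and 1.33 in batch 2. Nr2f2 was higher by 1.28 (0.53 and 2.06 by batch) and Meis2 by 1.25 (1.43 and 1.17). Aldh1b1, a mitochondrial aldehyde dehydrogenase, was lower, at 0.28 in cKO and 1.41 in control, a difference of −1.13. This comparison shares its control cells with that of the cluster, so the values are set side by side and not correlated. The counts depended on how low values were weighted, with 0 genes higher at a pseudocount of 10 and 9 higher by the log2 ratio of mean TPM.

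**Figure D5:**
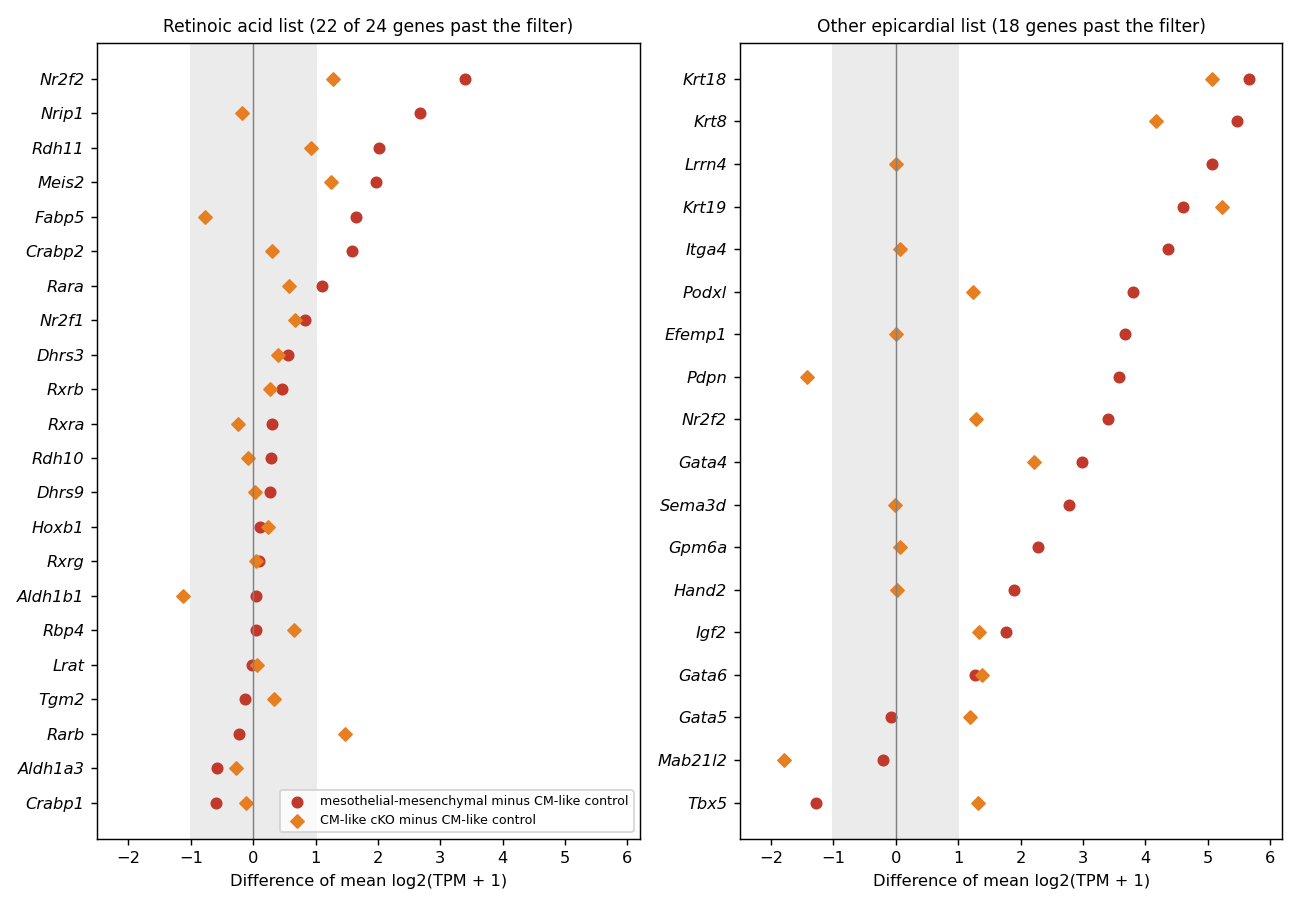
Difference of the mean log2(TPM + 1) (horizontal axis) of genes that passed the filter in the retinoic acid list and in the list of other epicardial genes, for the mesothelial-mesenchymal cluster (circles) and cKO CM-like cells (diamonds), both minus control CM-like cells; the grey band spans −1 to 1. Of the 24 retinoic acid genes 22 are drawn, and the keratins Krt8, Krt18 and Krt19 lay far to the right in the cluster and in cKO CM-like cells.

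The second list held 22 other genes reported for the epicardium or proepicardium, of which 18 passed the filter. Nr2f2 was in the retinoic acid list as well and is counted in both. In the mesothelial-mesenchymal cluster, 15 of the 18 were higher than in control CM-like cells and 1 was lower, with a median of 3.19. Since 4 of them (Sema3d, Lrrn4, Gpm6a and Pdpn) were among the markers that formed the clusters, the count without markers was 11 of 14 higher, beside 28.2% of all genes. Efemp1, detected in 9 of the 13 cells and in 0 CM-like cells, passed the filter mainly through the cluster. The list was also chosen with earlier results of these data known, so the count is a description only. The simple-epithelium keratins Krt18 and Krt8 were higher by 5.67 and 5.47, Krt19 by 4.61, the fibronectin and VCAM1 receptor subunit Itga4 by 4.37, the sialomucin Podxl by 3.81, the matrix protein gene Efemp1 by 3.68 and Gata4 by 2.98. Hand2 (1.89), Igf2 (1.76), Gata6 (1.27) and Nr2f2 (3.40) were higher too, as were the markers Lrrn4 (5.08), Pdpn (3.57), Sema3d (2.78) and Gpm6a (2.29). Igf2 was higher still in endothelial-like cells, at a mean log2 level of 11.30 against 10.18 in the cluster. Gata6 was at 2.74 in endothelial-like cells and 2.95 in the cluster, Hand2 at 2.77 and 3.84 and Nr2f2 at 2.04 and 3.66. Tbx5, a T-box factor of the heart and forelimb, was lower, at a mean log2 level of 1.02 in the cluster and 2.30 in control CM-like cells.

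Part of this list was also higher in cKO than in control CM-like cells. The difference between this list and the 9 genes was not tested. Of the 18 genes, 10 were higher and 2 were lower, beside 12.3% and 1.87% of all genes tested. The keratin genes led, with Krt19 higher by 5.23 (68 of 69 cKO cells against 25 of 33 control cells), Krt18 by 5.06 (67 and 14) and Krt8 by 4.17 (62 and 13). Gata4 was higher by 2.22, Gata6 by 1.39, Igf2 by 1.34, Tbx5 by 1.32, Nr2f2 by 1.28, Podxl by 1.24 and Gata5 by 1.19. For Gata4 and Tbx5 the paper reported the other direction, lower in cKO, by quantitative PCR of E9.5 hearts and not of single CM-like cells. The gap in mitochondrial share between the genotypes, described above, holds for these cells too, and its part in the values was not tested. Pdpn, which encodes podoplanin of the mesothelial surface, was lower, with a difference of −1.42, and so was Mab21l2, with −1.79. With a pseudocount of 10 the count of higher genes was 5, and with 6 clusters it was 6. Lrrn4, Sema3d and Efemp1 were near 0 in both genotypes, with differences of 0.00, −0.02 and 0.01.

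The genes whose pattern across the 74 control cells was most like that of the 9 were found by Pearson's r with the mean z-score of the 9. They were Enpp1 (r = 0.92), Lhx9 (0.89), Ptn (0.88), Myrf (0.88), Krt7 (0.87), Trim61 (0.87), Lrrn4 (0.85), Sox9 (0.83), Gpr39 (0.83) and Aplp1 (0.80), of which Krt7, Lrrn4 and Sox9 were markers used for clustering. The points share their preparation and are cells of 1 sample. The score was less closely tied to the number of genes above 0, at r = 0.17. Without the 15 cells with at least 6 of the 9 genes, r of the 10 genes ranged from −0.08 to 0.37 over 59 cells. Those 15 cells were left out by the genes of the score itself, so a fall in r was built in. Within the 13 mesothelial-mesenchymal cells, r ranged from −0.06 for Gpr39 to 0.59 for Ptn. The r over all 74 cells also holds the difference between the 15 cells and the rest. Enpp1, a membrane phosphodiesterase, was detected in all 13 mesothelial-mesenchymal cells and in 7 of 33 control CM-like cells, and Gpr39, a zinc-sensing receptor, in 11 and 0. Both genes were picked by their r with the score, so these counts are a description only. Gpr39 was detected in 0 cKO CM-like cells and 1 endothelial-like cell, so it passed the filter mainly through the cluster.

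Taken gene by gene, Enpp1 was the most alike non-member for Wt1 (r = 0.75), Tbx18 (0.90), Tcf21 (0.90), Upk3b (0.91), Upk1b (0.86) and Aldh1a1 (0.89). Dcn was most like Myrf (0.80), Aldh1a2 was most like Enpep (0.77), and Bnc1 was most like Ildr2 (0.72). Between the 9 genes themselves, r across control cells was highest for Tcf21 and Upk3b (0.96) and lowest for Wt1 and Bnc1 (0.37). Within the 13 cells alone, r ranged from −0.30 for Wt1 and Dcn to 0.72 for Tbx18 and Tcf21. It was 0.50 for Tcf21 and Upk3b, 0.65 for Aldh1a2 and Dcn, 0.00 for Wt1 and Upk1b and −0.12 for Upk1b and Aldh1a2.

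The genes lie apart in the genome. On GRCm38, with GENCODE gene spans, Wt1 is at chr2:105126529-105173616, Tbx18 at chr9:87702800-87731260 and Tcf21 at chr10:22817281-22820174. Bnc1 is at chr7:81966672-81992292, Upk3b at chr5:136038496-136046487 and Upk1b at chr16:38773184-38800328. Aldh1a1 is at chr19:20492715-20643465, Aldh1a2 at chr9:71215789-71296243 and Dcn at chr10:97479609-97518143. Smart-seq2 does not mark strand, and 19.5% of the 31-base words of Tbx18 transcripts also occur in other genes. The gene sharing the most with Tbx18 was D030062O11Rik, on the opposite strand. For Aldh1a1 the share of such words was 5.70%, with its close paralogue Aldh1a7 sharing the most, and for the other 7 genes it was at most 1.495%.

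RefSeq promoter sequence (GRCm38.p6) was at hand for 6 of the 9 genes, and the 250 bases before the start are shown for 4 of them. Upk3b and Tcf21 are given because they led the difference, and Aldh1a1 and Aldh1a2 because the paralogues differed in how many of the 13 cells carried them. Each is written 5′ to 3′ on the strand of its gene, with capitals for letters of 4 motifs on either strand. The motifs were AGATAA for GATA factors, GGAATG for TEAD factors, AGGTCA for nuclear receptors and TATAAA for the core promoter box.
Upk3b, chr5:136038246-136038495, plus strand: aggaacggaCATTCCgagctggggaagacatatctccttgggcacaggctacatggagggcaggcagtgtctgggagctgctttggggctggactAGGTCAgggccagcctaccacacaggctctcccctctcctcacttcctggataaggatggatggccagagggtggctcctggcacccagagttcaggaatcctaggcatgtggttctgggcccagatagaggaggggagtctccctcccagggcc
Tcf21, chr10:22820144-22820393, minus strand: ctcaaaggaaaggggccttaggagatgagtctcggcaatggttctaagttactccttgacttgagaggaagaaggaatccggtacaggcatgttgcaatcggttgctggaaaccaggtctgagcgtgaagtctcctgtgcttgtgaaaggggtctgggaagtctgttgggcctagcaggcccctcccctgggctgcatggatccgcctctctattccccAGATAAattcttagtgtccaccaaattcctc
Aldh1a1, downstream of its 2 RefSeq starts, chr19:20601718-20601967, plus strand: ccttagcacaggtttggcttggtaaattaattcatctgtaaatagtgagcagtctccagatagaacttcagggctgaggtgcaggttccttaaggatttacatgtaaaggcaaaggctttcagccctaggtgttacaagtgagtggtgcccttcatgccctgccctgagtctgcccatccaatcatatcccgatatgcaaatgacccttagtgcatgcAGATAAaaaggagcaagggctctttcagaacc
Aldh1a2, chr9:71215539-71215788, plus strand: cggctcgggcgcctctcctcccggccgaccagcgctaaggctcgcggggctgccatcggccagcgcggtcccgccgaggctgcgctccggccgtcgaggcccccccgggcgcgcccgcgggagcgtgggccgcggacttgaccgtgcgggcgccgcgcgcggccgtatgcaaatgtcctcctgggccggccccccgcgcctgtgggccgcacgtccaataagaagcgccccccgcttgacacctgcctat

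The Upk3b sequence held 1 GGAATG on the opposite strand and 1 AGGTCA, the Tcf21 and Aldh1a1 sequences each held 1 AGATAA at 31 and 32 bases before the start, and that of Aldh1a2 held none of the 4. Over the 7 promoter entries of the 6 genes, AGATAA occurred in 2, GGAATG in 2, AGGTCA in 1 and TATAAA in 0. Of all 32851 promoters of the same length, 9.99% held AGATAA, 12.6% GGAATG, 14.02% AGGTCA and 12.4% TATAAA. No motif was therefore shared by most of these genes, and a match describes letters only.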

How the data were processed

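Smart-seq2 libraries were made from cells of E9.5 ventricles. The authors mapped reads to mm10 with Salmon (version not given in the sources used here), dropped cells that mapped poorly and deposited TPM per gene and cell. TPM totals per cell were 996133 to 999999, so depth is lost and shares have exact Clopper-Pearson intervals of counting error only. Where a count was 0, 3 cells of the total is named as a second limit. Of 170 labelled samples, 143 had a column, matched by title, and 27 were not analysed here. Identical columns numbered 0.

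Values were compared as log2(TPM + 1), a pseudocount that understates changes of low genes, in genes with TPM above 0 in more than 10 cells. Cells were clustered by Ward linkage on z-scores of 57 markers into 5 clusters (Python 3.11.15, NumPy 2.4.6, pandas 2.3.3, SciPy 1.17.1). A cluster took a class name from at least 3 raised markers and its top 10 genes. The rule for the compared cluster (most mesothelial and mesenchymal markers) would have chosen the cell that stood alone, so clusters of 1 cell were passed over. Cells were picked by hand and no doublet caller was run. No test was run, because each genotype is 1 sample. The scripts were tested on simulated data. The 9 genes and all lists were chosen with earlier results of these data known. Listed genes are named where they differed by at least 1 log2 unit pooled and in the same direction in each batch, and the other listed genes given with values were chosen after those were seen. Of the retinoic acid list, 2 genes are counted but not reported here. Genes alike are the 10 of highest r, and 3 for each gene. Alternatives changed the pseudocount, the detection threshold, the clustering, the filters and the batch, and 3 were added after seeing the data (at least 6 genes in a cell, a mitochondrial share of at most 15%, and leaving out the erythroid-like cells and the cell that stood alone).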

Additional observations from a re-analysis of the deposited data

Results flagged for a closer look

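In the control sample, 2 cells outside the compared groups carried more of the 9 genes than any control CM-like cell, where the highest number was 4. An erythroid-like cell of batch 2 had 7 of the 9 detected. Its TPM was 81.6 for Wt1, 37.9 for Tbx18, 396 for Tcf21, 403 for Upk3b, 592 for Upk1b, 13.7 for Bnc1 and 219 for Dcn, while Aldh1a1 and Aldh1a2 were at 0. Its erythroid markers summed to TPM 82297 and its mesothelial markers to 289, within the 21.5 to 663 of the mesothelial-mesenchymal cluster. The other 4 erythroid-like cells had 0 or 1 of the genes. Whether 2 cells were picked together was not tested.

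The cell that clustered alone, also of batch 2, likewise had 7 of the 9 detected, among them Upk1b at TPM 996, Upk3b at 780, Tcf21 at 641 and Dcn at 195, with Aldh1a2 and Bnc1 at 0. Its mesothelial markers summed to TPM 245 and its mesenchymal markers to 622. It had 6427 genes above 0, against 6792 to 11152 in the cluster. With 4 clusters in place of 5 it joined the mesothelial-mesenchymal cells.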

How the results depend on the processing

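No paired analysis was possible because titles number single cells and no result comes from a test. The mean difference of the 9 genes between the mesothelial-mesenchymal cluster and control CM-like cells (5.73) was 7.90 with a pseudocount of 0.1, 3.34 with 10 and 1.70 with clusters on 1000 variable genes, and it ranged from 5.61 to 5.93 when each cell of the cluster was left out in turn. The mean difference between cKO and control CM-like cells (0.19) was 0.65 as the log2 ratio of mean TPM, with Upk3b (1.62), Upk1b (1.45) and Wt1 (1.17) past 1, and ranged from 0.18 to 0.22 when each control cell was left out. Cells with at least 3 of the 9 genes made up 25.7% of control cells, but 63.5% with any TPM above 0, 39.2% with a limit of 2 genes, 11.4% in batch 1 and 38.5% in batch 2. In cKO the share was 4.35%, but 33.3% with any TPM above 0, 34.8% with a limit of 2 genes and 0 with a limit of 4 or of 6.

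In the cluster, the count of higher retinoic acid genes (8) was 5 with a pseudocount of 10, with variable-gene clusters and in batch 1. The count of lower ones (0) was 2 with a pseudocount of 0.1 and in batch 2, 3 by the ratio of means and 1 with variable-gene clusters. Of the other epicardial genes, 6 and not 15 were higher with variable-gene clusters, and the count of lower ones (1) was 0 with a pseudocount of 10 and in batch 1, 2 by the ratio of means and in batch 2, and 3 with variable-gene clusters. Between genotypes, the count of higher retinoic acid genes (3) was 5 with a pseudocount of 0.1, 0 with 10 and 9 by the ratio of means. The count of lower ones (1) was 0 with a pseudocount of 10 and 2 with a pseudocount of 0.1, 6 clusters, variable-gene clusters, cells with at least 4000 genes, batch 2 alone, and cells of at most 15% mitochondrial TPM. The count of higher other epicardial genes (10) was 5 with a pseudocount of 10 and with variable-gene clusters, and 6 with 6 clusters and in batch 1. The count of lower ones (2) was 0 with a pseudocount of 10 and 1 in batch 2. The causes were not tested. The other 99 values of these kinds stayed within 1.5 times the reported count or within 1 SD. Depth is unknown, and an absent transcript in a single cell may be a missed one.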
